A study of Saccharomyces cerevisiae with 13 samples.

Results

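SSD1 and the RAM network, a kinase pathway of cell morphogenesis, are described here through 7 genes, SSD1 (YDR293C), CBK1 (YNL161W), MOB2 (YFL034C-B), KIC1 (YHR102W), HYM1 (YKL189W), TAO3 (YIL129C) and SOG2 (YOR353C), taken by their open reading frame names from a table of 6295 rows. All 7 rows were found and 6 held values on all 13 arrays, while the MOB2 row was empty on every array. The culture was budding yeast of strain W303 with the SSD1-V background, held in G1 by alpha factor, a mating pheromone, and released into rich medium (YEPD), and 1 array was made at 0 min and at each step of 10 min up to 120 min. Each array set Cy5-labelled cDNA of that time point against Cy3-labelled cDNA of an unsynchronised W303a culture grown in the same medium. Which SSD1 allele the reference carried is not stated there, and W303 stocks commonly carry a truncated allele, ssd1-d. There was 1 culture, 1 array a time point and no dye swap, so errors below come from the spread of arrays around a fitted curve and p-values do not measure the variation between cultures.

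Cbk1 is a kinase of the NDR/LATS family, with Mob2 as its activating subunit. Kic1, a kinase of the Ste20 family, acts upstream of Cbk1 together with Hym1, a scaffold of the MO25 family, Tao3, a large scaffold of the Furry family, and Sog2, a leucine-rich repeat protein. The network is needed for the separation of daughter cells and for polarized growth of buds and mating projections. Cbk1 also phosphorylates Ssd1, an RNA-binding protein that holds back translation of a set of mRNAs, many of them for cell wall proteins, and loss of the network is far more harmful in cells with a functional SSD1 allele.

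Values are log ratios as the authors deposited them, read as log2 of sample over reference. The sources used here do not state the log base, and the direction is likely from the labelled dyes and from the pheromone-induced genes FUS1, FIG1, AGA1 and PRM1, which stood between 3.40 and 4.53 at 0 min. Gene-centred arrays correlated as low as r = -0.64 (40 and 70 min), while the values as deposited correlated at 0.23 or higher for every pair of arrays. All 8 genes listed as landmarks of the cycle were periodic by the test below, against 30.0% of all genes. The list was chosen with earlier results of these data known, so this count is not an independent check. HTA1 (histone H2A), RNR1 (ribonucleotide reductase) and CLN2 (a G1 cyclin) peaked at 30.7, 19.4 and 19.5 min. With an estimated correlation 7 of 8 passed, against 17.0% of all genes, and SWI5 had adjusted p = 0.065 (limma). Genes that define MATa cells, the mating type that responds to alpha factor, were high at 0 min (STE2 1.07, MFA1 1.85, MFA2 0.93, BAR1 1.96, AGA2 2.82). Their later values ran from -2.09 to -0.07 (STE2), -1.66 to 1.66 (MFA1), -1.84 to 0.21 (MFA2), -1.70 to 0.55 (BAR1) and -1.19 to 2.13 (AGA2). The reference was itself a W303a culture, so these ratios do not show the mating type. The 8 markers of alpha cells, diploids and meiosis lay between -0.29 and 0.73 at 0 min, and a ratio to a reference does not show whether a transcript was present.

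After release the 6 measured genes stayed between -0.46 and 0.49 on the log2 scale from 10 to 120 min. Over those arrays the standard deviation of TAO3 exceeded that of 83.4% of genes and that of SSD1 62.1%, followed by KIC1 (44.1%), SOG2 (30.2%), CBK1 (11.2%) and HYM1 (4.31%). TAO3 was periodic, 1 of 6 against 30.0% of all genes tested, but 0 of 6 passed once a correlation between neighbouring arrays was estimated (TAO3, adjusted p = 0.057, limma). The departures that stood out were a high HYM1 value on the 0 min array, a dip of TAO3 in both cycles and a dip of SSD1 in the first. Periodicity was tested with limma as the joint F test of a cosine and a sine with a period of 60 min, fitted beside an intercept and a linear trend, and genes with a Benjamini-Hochberg adjusted p under 0.05 over all 6164 genes count as periodic. Swing stands for the difference between the peak and trough of the fitted curve in log2 units, given with its standard error. The median swing of the 6 genes was 0.26, and that of all genes tested was 0.21.

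**Figure D1:**
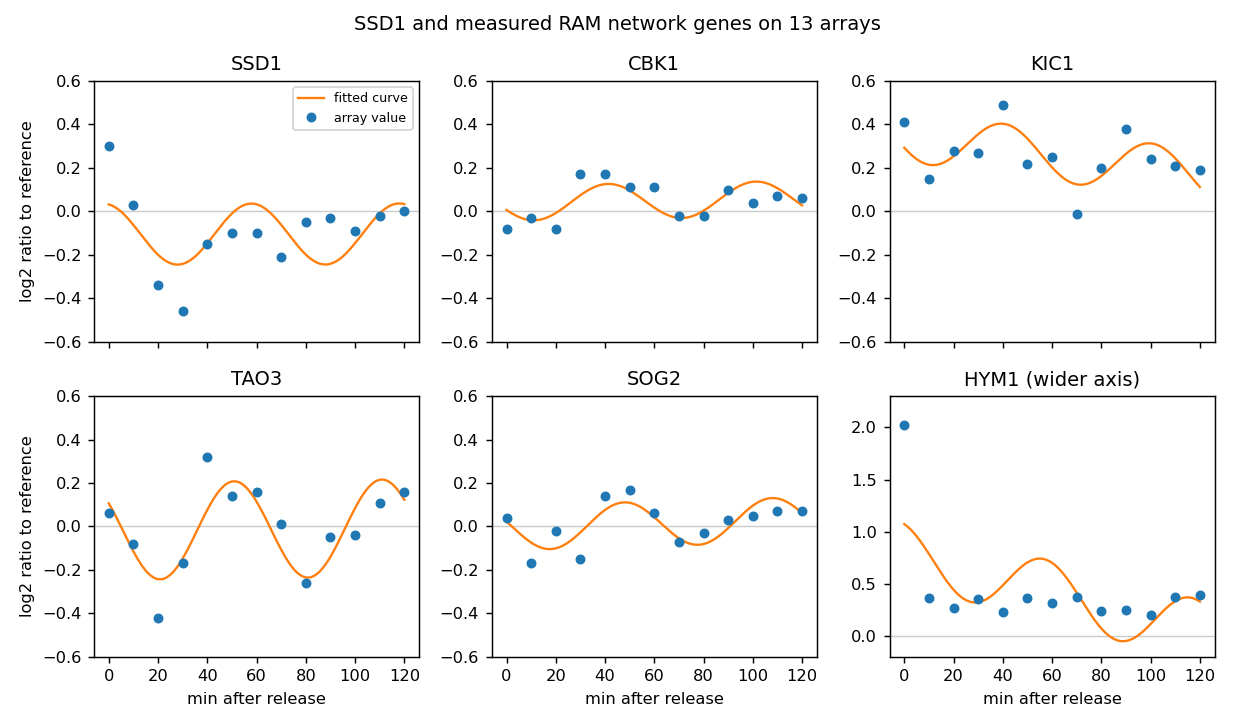
Log2 ratio to the asynchronous reference (vertical axis) against min after release (horizontal axis) for the 6 measured genes, with 1 point per array and the fitted 60 min curve with its linear term. HYM1 has a wider vertical axis because its 0 min value is 2.02, while TAO3 is lowest at 20 and 80 min.

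HYM1, the MO25-like scaffold, was the one member with a change of more than 1 log2 unit. It stood at 2.02 at 0 min and then at 0.36, 0.27, 0.35, 0.23, 0.36 and 0.32 from 10 to 60 min and at 0.37, 0.24, 0.25, 0.20, 0.37 and 0.39 from 70 to 120 min. The 0 min array was thus far above all the others, which lay within 0.19 of each other. Set beside the averaged 60 and 120 min values, the 0 min value was higher by 1.67, or 3.17-fold, and 1.12% of genes were higher at 0 min by at least 1 in this comparison, which has 1 array on one side and no test. The fall from 0 to 10 min, -1.66, was the rank 22 fall among 6148 genes measured on all arrays.

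The HYM1 value at 0 min exceeded its own highest later value by 1.63, at rank 13 of 6148 genes on this measure. A gap of at least 1 was found for 33 genes. Those ranked above HYM1 included FUS1 (2.72), PRM2 (2.54), FUS2 (2.49), KAR4 (2.15), PRM1 (2.10), FIG1 (1.77) and KAR5 (1.73), which are genes of mating, cell fusion and nuclear fusion. The rest ranked above it were PRM6 (2.43), YDR124W (2.02), ECM18 (1.77), ASG7 (1.69) and PRM4 (1.68). From 10 to 120 min HYM1 had a standard deviation of 0.067 (n = 12 arrays), the lowest of those 33 genes. The next, FRE7, had 0.089, and the median of all genes was 0.13. The genes next to HYM1 on its chromosome did not share the 0 min value: PXA2 (YKL188C) stood at 0.48 and CNB1 (YKL190W) at 0.40, above their highest later values by 0.13 and 0.06.

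**Figure D2:**
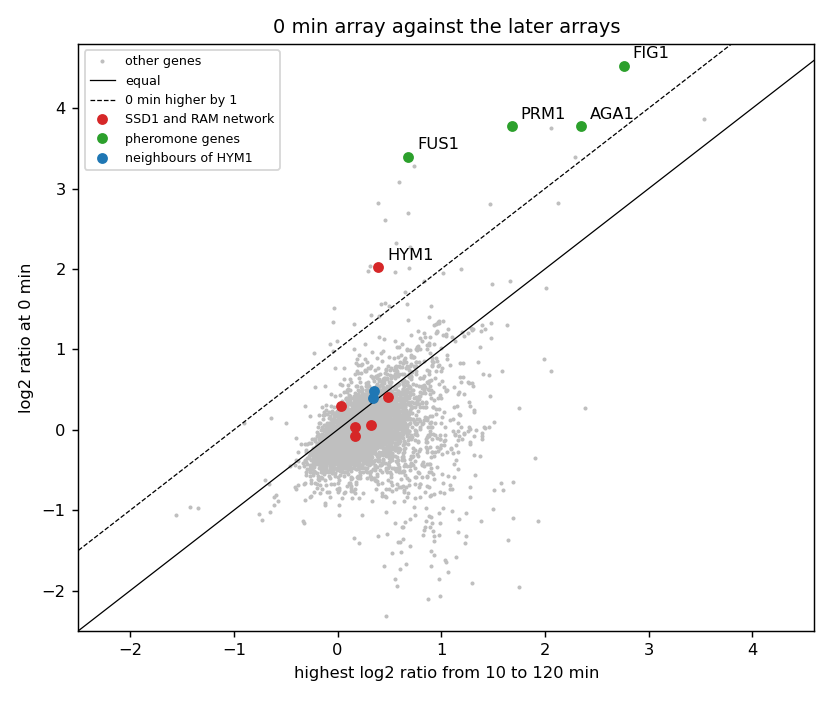
Log2 ratio at 0 min (vertical axis) against the highest log2 ratio from 10 to 120 min (horizontal axis), 1 point per gene measured on all arrays; the solid line marks equal values and the dashed line a 0 min value higher by 1. HYM1, at 2.02 against 0.39, lies above the dashed line with FUS1, FIG1, AGA1 and PRM1, while the other 5 measured members lie below it.

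The 0 min array decided what the fit gave for HYM1. The swing was 0.59 ± 0.27 over 13 arrays and did not pass (limma, adjusted p = 0.23), and without the 0 min array it was 0.13 (limma, adjusted p = 0.25). The linear term was -0.62 ± 0.27 per 100 min with the 0 min array (limma, adjusted p = 0.22) and had an adjusted p = 0.88 in limma without it.

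TAO3, the Furry-like scaffold, was the periodic member, with a swing of 0.45 ± 0.10 or 1.36-fold and a fitted peak at 50.9 ± 2.1 min (limma, adjusted p = 0.015). Its values were 0.06 at 0 min, then -0.08, -0.42, -0.17, 0.32, 0.14 and 0.16 from 10 to 60 min, and 0.01, -0.26, -0.05, -0.04, 0.11 and 0.16 from 70 to 120 min. It was lowest at 20 min in the first cycle and at 80 min in the second, which are 60 min apart. Its highest value, at 40 min, had no match at 100 min, and that pair differed by 0.36, the most of its 6 pairs of arrays 60 min apart. The spread between such pairs, as a standard deviation of a single array, was 0.12, against 0.21 over all 12 arrays from 10 to 120 min. The call was lost when a correlation between neighbouring arrays was estimated (adjusted p = 0.057 with an estimated correlation, limma) and with a period of 55 min (adjusted p = 0.083). With that correlation 0 of 6 members and 17.0% of all genes were periodic. TAO3 passed without each single array in turn, but only narrowly without its low arrays. There the limma adjusted p was 0.0498 without 80 min and 0.041 without 20 min. Without the 0 min array the periodic count was again 1 of 6, against 31.3% of all genes.

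The fitted peak of TAO3 came 5.7 ± 2.7 min after that of the mitotic cyclin gene CLB2 (45.2 min). The highest single arrays ran the other way, at 40 min for TAO3 and at 50 min for CLB2, so their order is not settled. The fitted peak of DBF2, a mitotic exit kinase of the same family as Cbk1, came 8.6 ± 2.4 min after that of TAO3. Both differences are less than the 10 min between arrays. Their errors treat the fits as independent, although the fits share the same arrays.

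SSD1 stood at 0.30 at 0 min, then at 0.03, -0.34, -0.46, -0.15, -0.10 and -0.10 from 10 to 60 min, and at -0.21, -0.05, -0.03, -0.09, -0.02 and 0.00 from 70 to 120 min. The 20 and 30 min arrays were the lowest of the course, and their counterparts at 80 and 90 min were not low. SSD1 was higher in the second cycle in 5 of 6 pairs of arrays 60 min apart, and the largest difference within a pair was 0.43, for 30 and 90 min. The repeat spread of 0.17 was as large as its standard deviation of 0.15 over the 12 later arrays. The swing was 0.28 ± 0.12 (limma, adjusted p = 0.18), and 0.15 without the 0 min array (limma, adjusted p = 0.47). Fitted to each cycle alone, the swing was 0.38 and then 0.09, and the difference did not pass (limma interaction test, adjusted p = 0.41). At 0 min SSD1 exceeded its highest later value by 0.27, at rank 168 of 6148 genes.

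CBK1, the NDR kinase, ran from -0.08 at 0 min to 0.17 at 30 and 40 min, with a median of 0.07 from 10 to 120 min. Its arrays 60 min apart differed by 0.06 on average and by no more than 0.13. The swing of CBK1 was 0.16 ± 0.07 (limma, adjusted p = 0.19). KIC1, the upstream kinase, spanned 0.50 over the later arrays, about as much as SSD1 with 0.49. It ran from -0.01 at 70 min to 0.49 at 40 min, with 0.41 at 0 min and a later median of 0.23. All but the 70 min array were above 0, and the second highest later value, 0.38, was at 90 min. The swing of KIC1 was 0.23 ± 0.09 with a fitted peak at 40.4 min (limma, adjusted p = 0.12).

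SOG2, the leucine-rich repeat component, ran from -0.17 at 10 min to 0.17 at 50 min, with 0.04 at 0 min. Its low arrays were those at 10 and 30 min, and its second cycle spanned only -0.07 to 0.07. The swing was 0.21 ± 0.07 with a fitted peak at 47.8 min (limma, unadjusted p = 0.039, adjusted p = 0.097).

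MOB2, the activating subunit of Cbk1, has no value under its own name. A pair of further rows, YFL035C and YFL035C-A, carry names that the RefSeq gene table (assembly R64) lists as synonyms of MOB2. YFL035C ran from -0.22 to 0.09 and YFL035C-A from 0.23 to 0.95, with means of -0.08 and 0.59 over the arrays from 10 to 120 min. They lay on opposite sides of the reference and correlated at r = -0.17 over 13 arrays, so they do not give a single MOB2 profile. Neither passed as periodic (limma, adjusted p = 0.14 and adjusted p = 0.58).

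**Figure D3:**
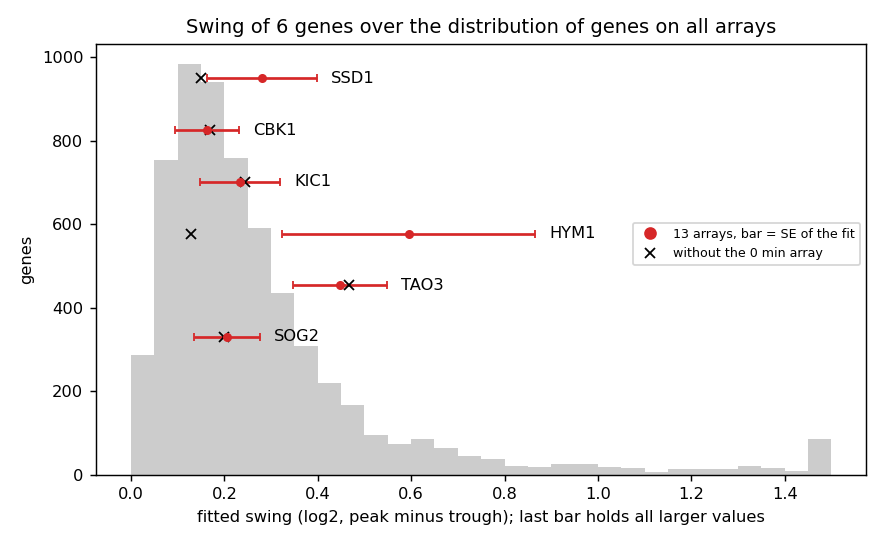
Fitted swing in log2 units (horizontal axis) for the 6 measured genes, as red points with the standard error of the fit and as crosses without the 0 min array, over a grey histogram of the swings of genes measured on all arrays (vertical axis, number of genes; the vertical place of the points has no scale). The cross of HYM1 is at 0.13 against 0.59 for its point, and that of SSD1 at 0.15 against 0.28, while those of the other 4 genes lie on their points.

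The sampling over 2 cycles also allows a test of change between cycles and of drift. None of the 6 genes differed between the cycles (0 of 6, against 0.552% of all genes by limma's interaction test; at an unadjusted p under 0.05 also 0 of 6, against 935 of 6164 genes). The fitted swing was lower in the second cycle for 4 of 6, as it was for 72.7% of all genes. No member had a linear trend (0 of 6, against 2.89% of all genes by limma), and 1, HYM1, had an unadjusted p under 0.05 (0.042), as had 1302 of 6164 genes.

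The mean level from 10 to 120 min differed from the asynchronous reference for 4 of 6 members by limma, 3 above and 1 below, but 34.6% of all genes were above and 34.2% below by the same test. HYM1 was above the reference by 0.31 ± 0.02 (limma, adjusted p = 5.0e-08) and KIC1 by 0.24 ± 0.03 (limma, adjusted p = 5.1e-06). CBK1 was above by 0.06 ± 0.02 and SSD1 below, at -0.13 ± 0.04, but with an estimated correlation CBK1 had adjusted p = 0.17 and SSD1 adjusted p = 0.059. TAO3 and SOG2 were at -0.01 ± 0.03 and 0.01 ± 0.02. The median absolute difference over all genes was 0.12, so HYM1 and KIC1 lay above it and SSD1 near it. The reference was not replicated as a sample of its own, its strain differs in label from the culture, and the dyes were not swapped. Strain, synchrony and dye therefore cannot be told apart in these means.

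Over 13 arrays the highest Pearson correlations were 0.64 for SSD1 and HYM1, 0.63 for TAO3 and SOG2 and 0.53 for CBK1 and TAO3. Without the 0 min array that of SSD1 and HYM1 was 0.03, while those of TAO3 with SOG2 and with CBK1 were 0.63 and 0.64. KIC1 and HYM1 went from 0.30 to -0.59. CBK1 and KIC1 had 0.31 with all arrays and 0.57 without 0 min. The points share 1 culture and 1 reference, so these values describe the profiles only.

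**Figure D4:**
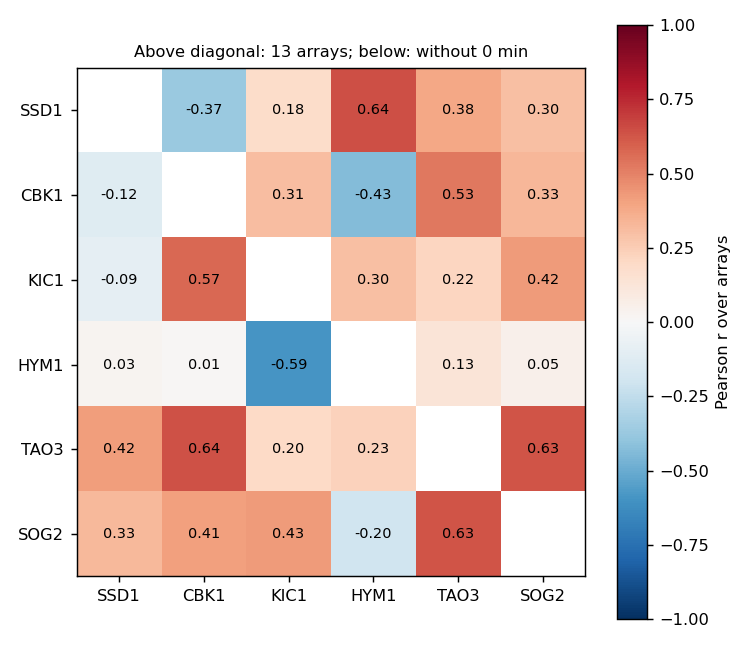
Pearson correlation between the profiles of the 6 measured genes, over 13 arrays above the diagonal and over the 12 arrays from 10 to 120 min below it; colour runs from blue at -1 to red at 1. SSD1 and HYM1 go from 0.64 to 0.03, and TAO3 and SOG2 stay at 0.63.

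Among 5692 genes with a RefSeq match and values on all arrays, the profiles most like HYM1 over 13 arrays were those of YDR124W (r = 0.98), FUS2 (0.98), which acts in cell fusion, and PRM2 (0.98), a pheromone-regulated membrane protein. They stood at 2.70, 3.08 and 3.28 at 0 min. Their r with HYM1 rests mostly on that 1 array, the same that gave the 0 min gaps above. Over the 12 later arrays none of these 3 was among the 3 closest to HYM1, which were SIP2 (0.86), YGR237C (0.84) and GID11 (0.83). The closest to TAO3 was TOR2 (0.95 with and without the 0 min array), which encodes the kinase of TOR complex 2, followed by VAC8 (0.92), a vacuole membrane protein, and OCA5 (0.90), which VPS501 (0.92) replaced without the 0 min array. TOR2 was itself periodic, its swing being 0.49 and its peak falling at 50.1 min (limma, adjusted p = 0.0096). Its low arrays were 20 min (-0.52) and 80 min (-0.17), as for TAO3. TOR2 was picked for its likeness to TAO3, so the shared low arrays, peak and periodic call are not separate results.

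For the other members the closest genes are given over 13 arrays. The closest to SSD1 were YIL055C (0.94), ATG20 (0.93) and UBC8 (0.93). Those closest to CBK1 were VPS63 (0.92), YAP1 (0.92), a factor of the oxidative stress response, and TDA9 (0.91). KIC1 was most like ATR2 (0.86), BUD21 (0.85) and SFK1 (0.82), and SOG2 most like NUP188 (0.94), a nuclear pore subunit, DML1 (0.92) and SPT2 (0.91). Without the 0 min array all 3 were replaced for CBK1, led by MRX12 (0.97), and for KIC1, led by REG1 (0.92). For SSD1 and SOG2, YIL055C (0.93) and NUP188 (0.95) stayed among the 3, and the others were replaced. No member appeared among the 3 closest genes of another member. With only 3 places per member among 5692 genes, such an absence was likely in advance and does not measure likeness between members.

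Beside the network stand proteins that bind its kinases or that they phosphorylate. Of 6 such partners and substrates of Cbk1 and Kic1, 2 were periodic, against 30.0% of all genes. With an estimated correlation 2 were also periodic, against 17.0% of all genes, and the list's median swing was 0.18. These were FIR1 (YER032W), an inhibitor of cell separation that Cbk1 acts on, with a swing of 1.18 ± 0.15 and its peak at 38.5 min, and SEC2 (YNL272C), an exchange factor for the secretory GTPase Sec4, with 0.49 ± 0.09 and its peak at 18.2 min. FIR1 was lowest at 10 min (-0.96) and 70 min (-0.57) and highest at 40 min (0.67) and 100 min (0.56), so the turning points of both cycles were 60 min apart. The others, LRE1, CDC31, NAP1 and MPT5, had swings between 0.06 and 0.19 and did not pass. Without the 0 min array 3 of 6 passed, against 31.3% of all genes, NAP1 being gained (limma, adjusted p = 0.045).

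Of 13 listed mRNAs that Ssd1 binds, 12 were measured, and the CCW14 row was empty. Of these 12, 7 were periodic, against 30.0% of all genes, and 6 with an estimated correlation, against 17.0%. Without the 0 min array 10 passed, against 31.3%. The list's median swing over 13 arrays was 1.20. SIM1 (0.88 ± 0.10, peak at 34.4 min), TOS6 (2.78 ± 0.35, peak at 23.6 min) and UTH1 (1.38 ± 0.17, peak at 57.9 min), all of the cell wall, had the smallest p and peaked at different times. UTH1 stood at -1.09 and -1.12 at 20 and 30 min, the arrays at which SSD1 was lowest, and again at -0.83 and -0.97 at 80 and 90 min, at which SSD1 was not low. At 20 and 30 min the others named here went the other way, TOS6 at 1.75 and 0.71 and SIM1 at 0.19 and 0.36.

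The mitotic exit network, which holds the other Cbk1-like kinase pathway of yeast, had 9 of 10 measured members periodic, against 30.0% of all genes. With an estimated correlation 8 passed, against 17.0% of all genes, and the list's median swing was 0.51. DBF2 had a swing of 1.21 ± 0.15, BFA1 0.53 ± 0.08 and TEM1 0.46 ± 0.08. MOB1, the Dbf2 subunit related to MOB2 and named here for that kinship after its values were seen, had 1.03 ± 0.19 with its peak at 50.0 min. In the cell wall integrity pathway 2 of 10 members were periodic, and 1 with an estimated correlation, against 17.0% of all genes. The 2 were PKC1 (0.26 ± 0.06), the protein kinase C, and BCK1 (0.42 ± 0.10), a kinase below it. The list's median swing was 0.20. Without the 0 min array 4 passed, against 31.3% of all genes. There MID2 (limma, adjusted p = 0.0045) and RLM1 (limma, adjusted p = 0.032) were gained. No test compares these lists, so the counts are descriptions beside the shares of all genes, 30.0% in the main fit.

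**Figure D5:**
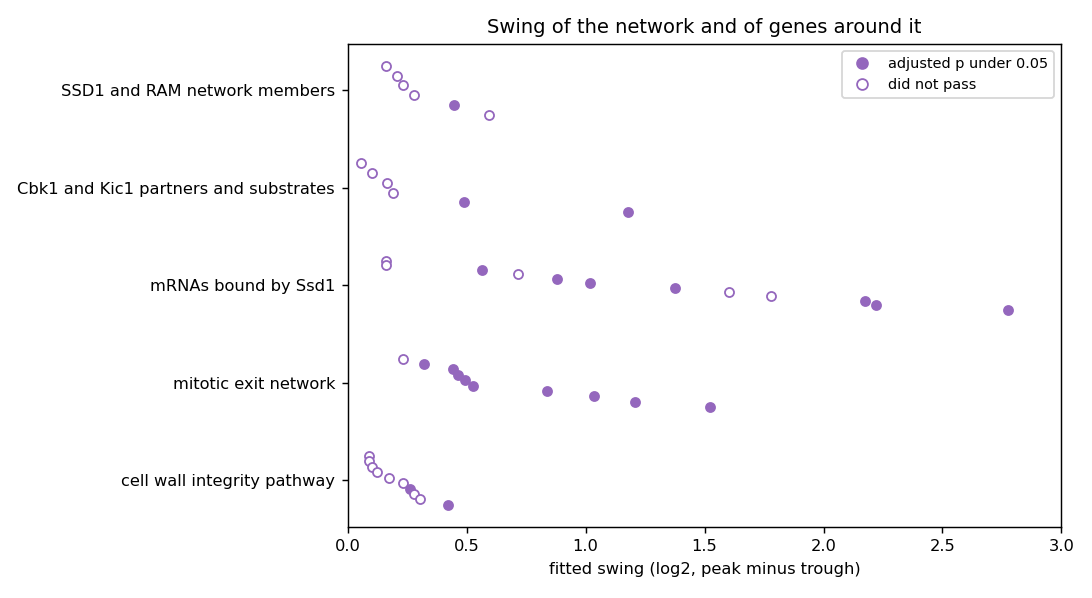
Fitted swing in log2 units (horizontal axis), 1 point per measured gene, for SSD1 with the RAM network and 4 related lists; filled points were periodic at an adjusted p under 0.05 and open points did not pass. The 6 network genes lie between 0.16 and 0.59 with 1 filled, while the mRNAs bound by Ssd1 reach 2.78.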

How the data were processed

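The authors deposited a log ratio per open reading frame for each of 13 two-colour arrays, used as log2 without further normalization. The sources used here do not state the log base, scanner, background correction, normalization or any signal over background; array means lay within 0.003 of 0. Of 6295 rows, 20 had no readable name and 108 were empty. Names came from a RefSeq gene table (R64): 5768 rows were found by their locus tag and 49 through a synonym. Rows were not averaged, and 6164 with values on at least 10 arrays were tested.

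limma 3.58.1 in R 4.3.3 fitted the 60 min period that the series' design text implies; trend, cycle and reference tests used the designs named beside their results, each adjusted over all genes. The estimated correlation between neighbouring arrays was 0.33: the median lag-1 correlation of the residuals was -0.05, and the fit itself pulls residual correlations down, which was corrected for. Scripts were tested on simulated data with independent noise, which does not check calls under a correlation between neighbouring arrays. Figures used matplotlib 3.10.9. The members, lists and tests were chosen with earlier results of these data known. All members were named, with up to 3 periodic genes of smallest p per list and the 3 most correlated genes per member.

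Alternatives were an estimated correlation, periods of 55, 63 and 65 min, a second harmonic, no linear term, median-centred arrays, genes on all arrays and leaving out each array. Some genes that were listed are not reported here.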

Additional observations from a re-analysis of the deposited data

How the results depend on the processing

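No paired analysis was possible because each time point has 1 array. Of 6 members, the number periodic was 1 and became 0 with an estimated correlation and 0 with a period of 55 min, TAO3 being the gene lost; it was 1 to 1 when single arrays were left out. The number differing from the reference was 4, against 68.8% of all genes, and 2 (KIC1 and HYM1) with an estimated correlation, against 54.1%. It was 3 to 4 when single arrays were left out, against 65.3% to 67.7% of all genes. CBK1 was the gene lost there. Members with a trend or a difference between cycles stayed at 0 to 0 when single arrays were left out, and at 0 in the other settings tried for each. Over all genes, 1852 were periodic, against 1043 with an estimated correlation, 955 at 55 min, 923 with a second harmonic and 1195 without the 40 min array. Trends were called for 178 genes, against 14 with an estimated correlation, 72 and 278 at 55 and 63 min, and 72 to 236 without single arrays; at 65 min 4.92% of genes were called, against 2.89%. Differences between cycles were called for 34 genes, against 91 at 63 min, 3 to 238 without single arrays, and 0 with an estimated correlation, where 313 had an unadjusted limma p under 0.05. No array was repeated and signal over background is unknown, so the HYM1 value at 0 min rests on 1 measurement.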
